A study of Homo sapiens with 6 samples.

Results

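The genes described are 3 neighbours at the 9p21 locus of chromosome 9 (MTAP, CDKN2A and CDKN2B) and 7 genes of the methionine cycle and polyamine synthesis (MAT2A, MAT2B, AHCY, MTR, AMD1, SRM and SMS). They were taken by gene name, and all 10 had a row among the 58825 genes measured. RNA sequencing was done on NCI-H460, a human lung cancer cell line that is widely classed as large cell carcinoma and is called lung adenocarcinoma in the labels. Both groups, of 3 libraries each, were infected with lentivirus: NC-shRNA cells carried a control hairpin, which the labels describe as against GFP, and PRMT5-shRNA cells carried a hairpin against PRMT5. According to the methods, stably infected cells were selected with puromycin, and of the 3 PRMT5 hairpins designed the labels do not say which one was sequenced. The study describes the libraries as biological replicates, but the labels do not say whether they came from separate cultures, so the p-values measure the spread between these libraries.

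PRMT5 is an arginine methyltransferase that places symmetric dimethylarginine on histones, spliceosomal Sm proteins and other targets, with S-adenosylmethionine (SAM) as its methyl donor. MAT2A, with its regulatory partner MAT2B, makes SAM from methionine. Methyl transfer turns SAM into S-adenosylhomocysteine, AHCY splits this into homocysteine and adenosine, and MTR remakes methionine. A second branch begins when AMD1 decarboxylates SAM. The product donates aminopropyl groups to SRM, which makes spermidine, and to SMS, which makes spermine, and both reactions release methylthioadenosine (MTA). MTAP is the enzyme that clears MTA, the first step of a salvage route that remakes methionine. MTA competes with SAM at PRMT5, and tumours often lose MTAP together with the neighbouring tumour suppressors CDKN2A, which encodes p16INK4a and ARF, and CDKN2B, which encodes p15INK4b. Cells without MTAP are known to depend more on PRMT5, so whether the locus is expressed sets the background of a PRMT5 knockdown.

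Total counts ranged from 53531257 to 70518401 per library. PRMT5 had 9604, 8812 and 7966 counts in NC-shRNA replicates 1 to 3 against 2502, 3188 and 2203 in PRMT5-shRNA, a log2 fold change of -1.62 (edgeR quasi-likelihood test, standard error [SE] 0.0943, adjusted p = 0.0063), so the labels matched the knocked-down gene. All 10 genes passed edgeR's filter on low counts, as did 20295 genes in all. Of 5 epithelial markers, KRT8, KRT18 and KRT19 carried nearly all of the signal (summed level 1467 to 1644 CPM in NC-shRNA and 1333 to 1353 CPM in PRMT5-shRNA), while EPCAM and CDH1 had at most 2.10 CPM in a library and 4 lung lineage markers summed to at most 2.95 CPM. Here CPM is the usual unit of counts scaled to the library total. Fibroblast markers (6 genes, COL1A2 at 0) summed to 117 to 142 CPM and 110 to 132 CPM, mostly DCN. Blood markers (5 genes, CD3E at 0) summed to 2.74 to 3.45 CPM and 3.39 to 4.02 CPM. Endothelial markers (6 genes) summed to 9.74 to 10.8 CPM in NC-shRNA and 14.8 to 18.5 CPM in PRMT5-shRNA, with VWF at 0 in NC-shRNA, and their part in the results was not tested. The share of mitochondrially encoded genes was 13.0% to 13.5% in the controls and 12.5% to 13.4% in the knockdown.

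All 3 genes of the 9p21 locus were expressed in NC-shRNA cells, at low levels. MTAP (ENSG00000099810, GRCh38 chr9:21802543-21937651, plus strand) had 4559, 1656 and 1650 counts in NC-shRNA replicates 1, 2 and 3. CDKN2A (ENSG00000147889, chr9:21967753-21995301, minus strand) had 1935, 982 and 1989 counts. CDKN2B (ENSG00000147883, chr9:22002903-22009363, minus strand) had 1357, 1377 and 1295 counts. No library of either group was near 0 for any of them, and the 206.82 kb from the start of MTAP to the end of CDKN2B was thus transcribed at all 3 genes. In FPKM, a unit scaled by exon length and library size that allows genes to be compared per length, the NC-shRNA levels were 2.24 ± 1.35 for MTAP, 4.83 ± 1.87 for CDKN2A and 4.25 ± 0.173 for CDKN2B (SD, n = 3 each). By FPKM, 53.3% of the 20295 tested genes ranked at or below MTAP, 68.4% at or below CDKN2A and 65.9% at or below CDKN2B. NCI-H460 is often listed as carrying a deletion at CDKN2A. Gene level RNA values give neither the number of gene copies nor the identity of the line, so whether these cells carry the locus whole was not tested, and the levels describe the sequenced cells rather than the line as listed.

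The libraries did not vary alike at the 3 neighbours. MTAP in NC-shRNA replicate 1 reached 67.9 CPM, against 23.9 and 26.6 CPM in replicates 2 and 3, and was 2.32 times the next highest of the 6 libraries. Its coefficient of variation among the NC-shRNA libraries, 62.6%, was above that of 99.1% of 9963 genes with a mean of at least 10 CPM. CDKN2A stood out in the other direction and in another library, with 14.2 CPM in NC-shRNA replicate 2 against 28.8 and 32.0 CPM in replicates 1 and 3. CDKN2B was even, at 20.2, 19.9 and 20.8 CPM, a coefficient of variation of 2.45%. MTAP was 1 of 8 such genes for which NC-shRNA replicate 1 was at least 2-fold above all other libraries, and each of the other libraries had 5 to 9 genes of this kind. CDKN2A was 1 of 30 genes for which NC-shRNA replicate 2 was at most 0.5 of every other library, where the other libraries had 21 to 34. The single libraries are therefore given beside each result on MTAP and CDKN2A.

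The gene level values hold no information on isoforms. The length behind each FPKM value, worked out from counts and FPKM and scaled on 930 genes with 1 transcript, was 14613 to 14663 bases for MTAP and 4335 to 4353 bases for CDKN2A. These lengths are close to the union of all annotated exons, 14617 and 4329 bases, whereas the longest coding transcripts have 7557 and 1283 bases. Per longest coding transcript, the NC-shRNA level of CDKN2A was 16.3 FPKM, that of MTAP 4.33 FPKM and that of CDKN2B 4.41 FPKM. The places of CDKN2A and CDKN2B in the order of the 10 genes were the same under both lengths. The one pair that changed places was SMS and MAT2A, at 159.75 and 210.26 FPKM per longest coding transcript. p16INK4a and ARF, which share exons of CDKN2A, could not be told apart. CDKN2B-AS1, the antisense transcript that overlaps CDKN2A and CDKN2B on the other strand, had 190 to 291 counts in the controls and 126 to 264 in the knockdown. How the counting treated strand is not given in the sources used here, so reads in such overlaps may have been shared. AL359922.1, a gene model on the strand of MTAP that spans all 3 genes, was at 0 counts in all 6 libraries.

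Around the locus, 105 annotated genes within 3 Mb of CDKN2A on either side had a row, and 48 of them had 0 counts in every library. A mean of at least 1 FPKM in a group was reached by 14 genes, of which 11 were not among the 3 genes described. On the MTAP side the nearest of them was KLHL9, an adaptor of a cullin ubiquitin ligase, at 6.46 ± 0.368 FPKM in NC-shRNA and 6.48 ± 0.0755 FPKM in PRMT5-shRNA (SD, n = 3 each). Further out came FOCAD (3.82 ± 0.146 FPKM in NC-shRNA), MLLT3 (3.09 ± 0.395 FPKM), the ribosomal protein gene RPS6 (350.4 ± 9.35 FPKM) with the low antisense gene AL391834.2, DENND4C, PLIN2, HAUS6, SCARNA8 and RRAGA, a GTPase of amino acid sensing by mTORC1 (29.3 ± 1.09 FPKM). On the CDKN2B side the single gene past 1 FPKM was CLIC4P1 (2.88 ± 0.871 FPKM), a processed pseudogene whose reads may belong to CLIC4. The genes directly flanking the locus were RN7SL151P, at 0 counts in all libraries, and UBA52P6, at 0.11 FPKM in NC-shRNA.

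The window also holds the type I interferon cluster, which surrounds KLHL9. It was nearly silent: of 16 protein-coding interferon genes, 9 had 0 counts in all 6 libraries and the highest count of any in a library was 41. Between the groups, the log2 fold changes of the 11 expressed neighbours ran from -0.41 to 0.26 with a median of -0.06. By edgeR's quasi-likelihood test 0 of these 11 had an unadjusted p under 0.05, against 12.8% of all tested genes. The smallest adjusted p was 0.47. For PLIN2 and RPS6 the PRMT5-shRNA libraries lay wholly below the NC-shRNA libraries in CPM, as they did for 10.7% of all genes. Their log2 fold changes were -0.15 and -0.09.

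**Figure D1:**
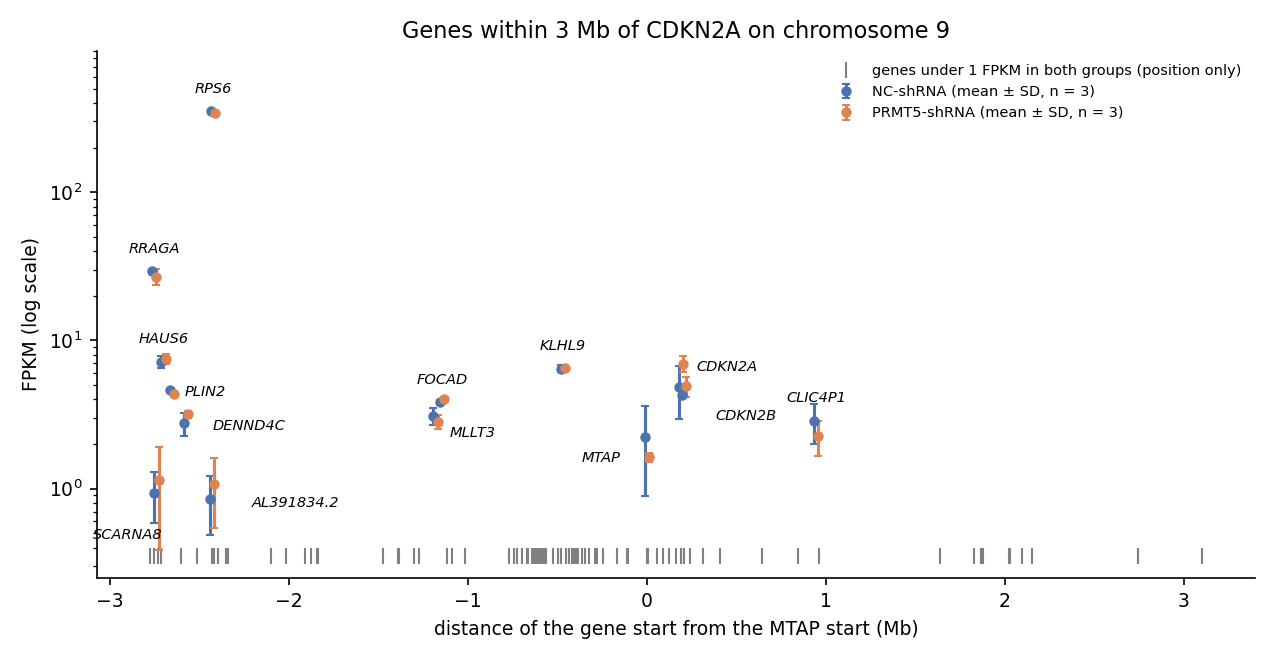
Mean FPKM (log scale, bars are SD, n = 3 libraries) of the 14 genes with at least 1 FPKM in a group, against the distance of each gene start from that of MTAP in Mb. Grey ticks mark the positions of genes below 1 FPKM in both groups. MTAP, CDKN2A and CDKN2B lie together at 1.63 to 6.97 FPKM, with KLHL9 as the closest expressed gene on the left, and on the log scale the widest NC-shRNA bar at the locus is that of MTAP.

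The 7 enzymes of the methionine cycle and of polyamine synthesis covered a wide range of levels in NC-shRNA cells. SMS was highest, with 137.16, 140.55 and 129.88 FPKM, and MAT2A followed with 129.31, 130.01 and 136.97 FPKM. The libraries of these genes overlapped, so their order is not separated. AHCY had 86.86, 82.57 and 84.2 FPKM and SRM 40.81, 42.01 and 36.26 FPKM. MAT2B, the regulatory partner of MAT2A, had 11.94, 12.31 and 11.88 FPKM. The catalytic subunit was thus far above its partner at the transcript level. AMD1, the entry enzyme of the polyamine branch, had 8.86, 8.97 and 8.69 FPKM, well below both synthases that use its product. MTR had 4.01, 4.49 and 4.84 FPKM. From SMS to MTAP, each gene's NC-shRNA libraries lay wholly above those of the next gene except for 3 neighbouring pairs, SMS and MAT2A, CDKN2A and MTR, and MTR and CDKN2B. MTAP was the lowest of the 10, at 3.8, 1.37 and 1.55 FPKM.

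**Figure D2:**
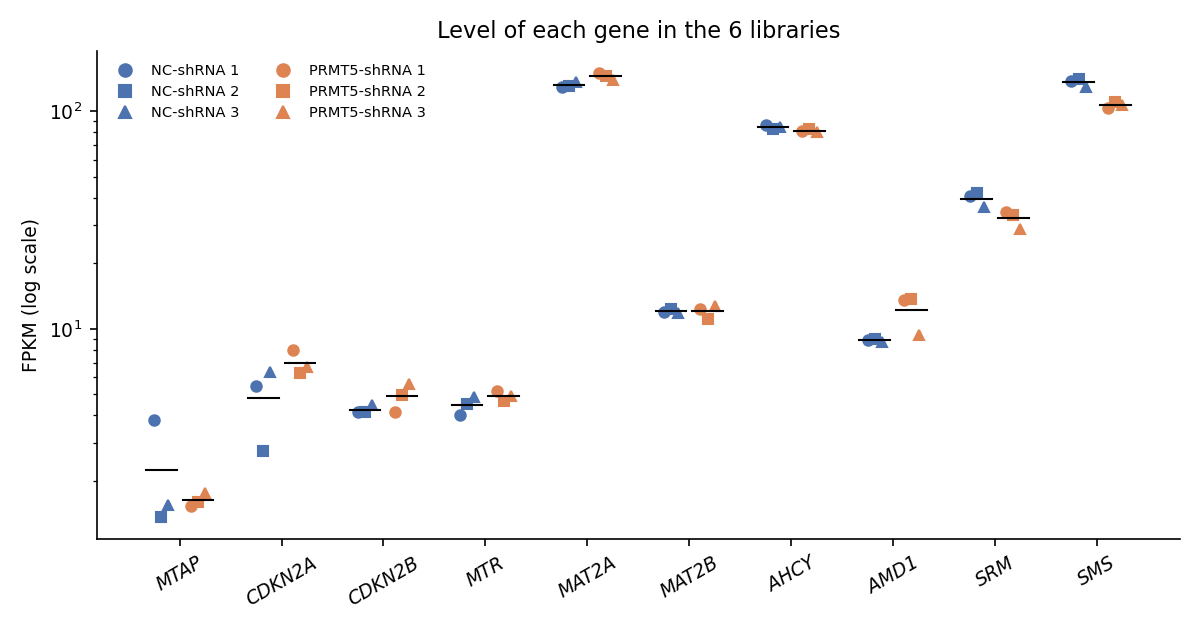
FPKM (log scale) of the 10 genes in each of the 6 libraries, with blue for NC-shRNA, orange for PRMT5-shRNA, marker shape for the replicate and black lines for the group means. SMS and MAT2A stand near 130 FPKM and MTAP near 2 FPKM, and the groups are apart on this scale for SRM, SMS, AMD1 and MAT2A.

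Between PRMT5-shRNA and NC-shRNA cells, 0 of the 10 genes had an adjusted p under 0.05 by the quasi-likelihood test of edgeR, where 0.0690% of all tested genes did. An unadjusted p under 0.05 was reached by 3 of the 10, against 12.8% of all tested genes: SMS and SRM, both lower (6.29% of all genes), and AMD1, which was higher (6.54%). With a fold change over 1.5 in addition, 0 of the 10 passed, against 3.82% of all genes. The PRMT5-shRNA libraries lay wholly below the NC-shRNA libraries in CPM for 3 of the 10, AHCY, SRM and SMS (10.7% of all genes), and wholly above for 0 of them (11.0%). DESeq2, which called 3.17% of the genes to which it gave an adjusted p, called SMS alone of the 10. The median log2 fold change of the 10 genes was 0.01, and that of all tested genes was 0.01. Fewer cells of a kind and less RNA per cell cannot be told apart in such bulk samples.

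Both aminopropyl synthases, which spend the decarboxylated SAM, were lower in every PRMT5-shRNA library. SMS (ENSG00000102172, chrX:21940573-21994835, plus strand) had 339, 339 and 307 CPM in NC-shRNA replicates 1 to 3 and 239, 256 and 246 CPM in the PRMT5-shRNA libraries. The lowest NC-shRNA library was above the highest PRMT5-shRNA library. The means were 329 ± 18.4 and 247 ± 8.79 CPM (SD, n = 3 each), which put PRMT5-shRNA cells at 75.2% of NC-shRNA cells. This was a log2 fold change of -0.41 (edgeR, SE 0.0619, unadjusted p = 0.000304, adjusted p = 0.11). With DESeq2 the log2 fold change was -0.42 and the adjusted p was 0.00013, so the call rests on the choice of test. Leaving out each library in turn gave values between -0.46 and -0.39.

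SRM (ENSG00000116649, chr1:11054584-11060024, minus strand) had 94.4, 94.8 and 80.3 CPM in NC-shRNA replicates 1 to 3 and 74.6, 72.6 and 62.2 CPM in the PRMT5-shRNA libraries. Replicate 3 was the lowest of each group, and the groups did not overlap. The means were 89.8 ± 8.29 and 69.8 ± 6.68 CPM (SD, n = 3 each), which gave a log2 fold change of -0.36 (edgeR, SE 0.10, unadjusted p = 0.00857, adjusted p = 0.25). For SRM and SMS the exact two-sided permutation test gave p = 0.1 for both, which is as low as 3 against 3 can reach. Fold changes were slightly larger for genes with longer exon sequence (Spearman correlation 0.12 over 20221 genes, which are not independent), and both synthases are short. With a length correction, chosen after seeing the data, the log2 fold change was -0.33 for SMS and -0.27 for SRM.

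The sequence just upstream of SRM and SMS is shown because these were the genes of the group with the smallest p and the same direction. The windows lie within the 250 bases before the RefSeq start on GRCh38.p14 and stop where the GENCODE gene begins, at chr1:11060025-11060268 on the minus strand for SRM and chrX:21940459-21940572 on the plus strand for SMS. Capitals mark the E-box CACGTG, a palindrome that MYC and related factors can bind.
SRM: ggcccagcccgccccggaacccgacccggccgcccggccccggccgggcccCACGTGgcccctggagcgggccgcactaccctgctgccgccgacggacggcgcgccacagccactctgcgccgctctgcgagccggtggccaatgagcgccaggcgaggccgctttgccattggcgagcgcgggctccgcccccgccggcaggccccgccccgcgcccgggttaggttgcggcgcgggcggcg
SMS: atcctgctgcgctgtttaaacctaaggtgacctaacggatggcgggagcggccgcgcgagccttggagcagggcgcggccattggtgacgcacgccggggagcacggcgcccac
In SRM the first base of the E-box lay at -199, counted from the RefSeq start. Of 35116 RefSeq promoters, 6.34% held CACGTG in these 250 bases, and of the 17 promoters of the 10 genes 1 did, that of SRM. TGATGNAAT, a form of the amino acid response element that ATF4 can bind, was searched on both strands too and lay in 0.888% of all promoters and in 0 of the 17. Such matches describe letters only, and binding was not measured.

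AMD1 (ENSG00000123505, chr6:110874770-110895713, plus strand), which supplies both synthases, had the opposite sign. It had 76.0, 75.2 and 71.4 CPM in NC-shRNA replicates 1 to 3 and 109, 112 and 75.2 CPM in PRMT5-shRNA replicates 1, 2 and 3. PRMT5-shRNA replicates 1 and 2 stood above every control, and replicate 3 lay within the range of the controls. The means were 74.2 ± 2.47 and 98.7 ± 20.4 CPM (SD, n = 3 each), which gave a log2 fold change of 0.41 (edgeR, SE 0.149, unadjusted p = 0.0278, adjusted p = 0.33). Without PRMT5-shRNA replicate 3 it was 0.57 (edgeR adjusted p = 0.094), and without any other single library the unadjusted p was above 0.05. In FPKM, which carries no TMM factor, the groups for AMD1 were apart, at 8.86, 8.97 and 8.69 against 13.61, 13.77 and 9.41. Whether AMD1 overlapped therefore depended on the scaling.

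**Figure D3:**
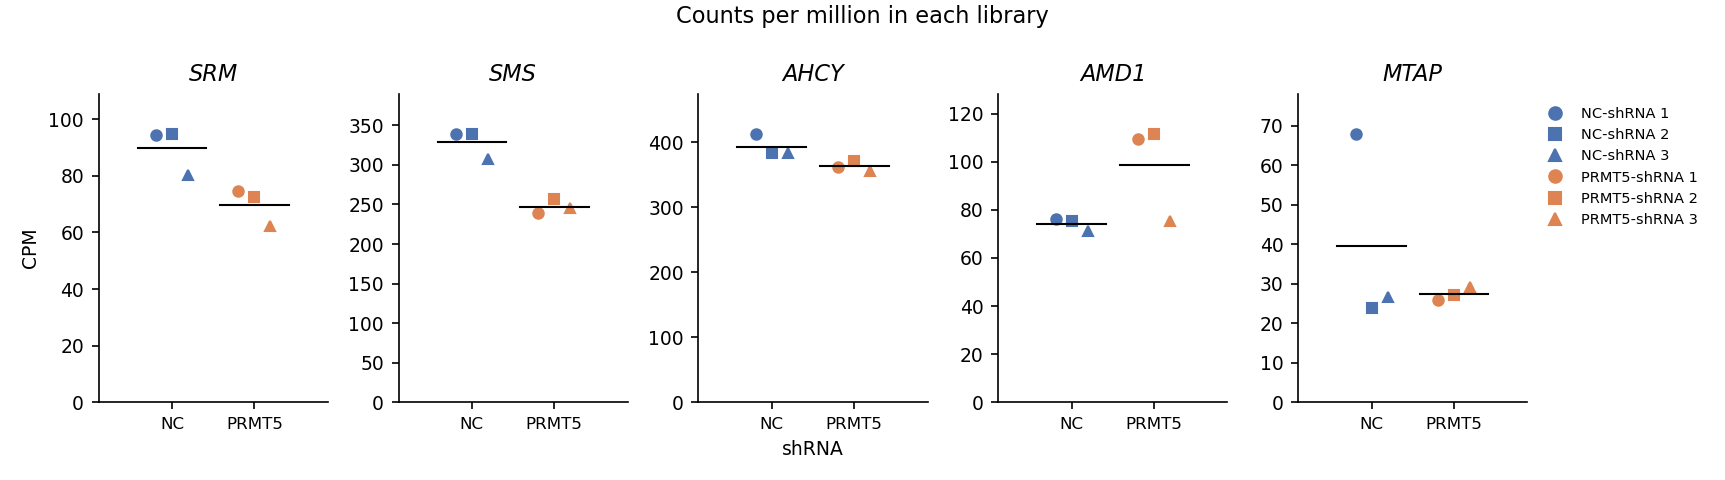
CPM (axes from 0) of SRM, SMS, AHCY, AMD1 and MTAP in each of the 6 libraries, with marker shape for the replicate and a black line for each group mean. The groups are apart for SRM, SMS and AHCY, PRMT5-shRNA replicate 3 sits among the controls for AMD1, and for MTAP 5 libraries lie between 23.9 and 29.3 CPM with NC-shRNA replicate 1 at 67.9 CPM.

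At the 9p21 locus the groups overlapped in CPM for MTAP, CDKN2A and CDKN2B, and none had an adjusted p under 0.05 in edgeR. MTAP had 25.8, 27.0 and 29.3 CPM in the PRMT5-shRNA libraries, all within the span of the controls given above. Its log2 fold change was -0.53 (edgeR, SE 0.386, adjusted p = 0.61), and without NC-shRNA replicate 1 it turned to 0.12 (edgeR adjusted p = 0.75), with means of 25.2 CPM in the remaining NC-shRNA libraries and 27.4 CPM in PRMT5-shRNA. The direction for MTAP is therefore set by that single library. CDKN2A had 39.4, 31.4 and 33.1 CPM in PRMT5-shRNA and a log2 fold change of 0.47 (edgeR, SE 0.286, adjusted p = 0.53). Without its low library, NC-shRNA replicate 2, this was 0.19, with means of 30.4 and 34.7 CPM. CDKN2B had 18.9, 22.9 and 25.5 CPM in PRMT5-shRNA, on both sides of the controls, and a log2 fold change of 0.14 (edgeR, SE 0.123, adjusted p = 0.67).

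In the methionine cycle the groups were close. MAT2A (ENSG00000168906, chr2:85539165-85545280, plus strand) had 708, 695 and 718 CPM in NC-shRNA and 769, 750 and 711 CPM in PRMT5-shRNA, which overlapped. Its log2 fold change was 0.07 (edgeR, SE 0.0506, adjusted p = 0.59). In FPKM, which carries no TMM factor, its libraries were apart, with means of 132 ± 4.23 and 145 ± 5.28 (SD, n = 3 each). By limma on log2 FPKM, MAT2A had an unadjusted p under 0.05 but no adjusted p under 0.05. GGCX, on the strand opposite MAT2A, had 2491 to 3220 counts per library, against 40905 to 52493 for MAT2A. MAT2B (ENSG00000038274, chr5:163503114-163519336, plus strand) had 74.9, 75.3 and 71.3 CPM against 72.4, 65.8 and 74.1 CPM, a log2 fold change of -0.06 (adjusted p in edgeR = 0.75).

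AHCY (ENSG00000101444, chr20:34280268-34311802, minus strand), the enzyme that removes the methyltransferase inhibitor S-adenosylhomocysteine, had 413, 383 and 383 CPM in NC-shRNA and 362, 372 and 355 CPM in PRMT5-shRNA. The groups did not overlap, though the gap was small, and in FPKM they overlapped. The log2 fold change was -0.11 (edgeR, SE 0.054, unadjusted p = 0.0714, adjusted p = 0.43). MTR (ENSG00000116984, chr1:236795281-236903981, plus strand), the vitamin B12-dependent methionine synthase, had 60.4, 66.1 and 69.9 CPM against 73.4, 66.1 and 69.1 CPM, which overlapped, and a log2 fold change of 0.09 (edgeR, SE 0.0784, adjusted p = 0.69). With standard errors between 0.0506 and 0.0784 on the log2 scale, these 4 genes were measured far more closely than MTAP or CDKN2A. Pseudogenes named after MTAP, AHCY, AMD1 and SRM, 14 in all, had little signal, with at most 33 counts in a library. None was found by name for the other genes, and copies under other names were not searched.

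**Figure D4:**
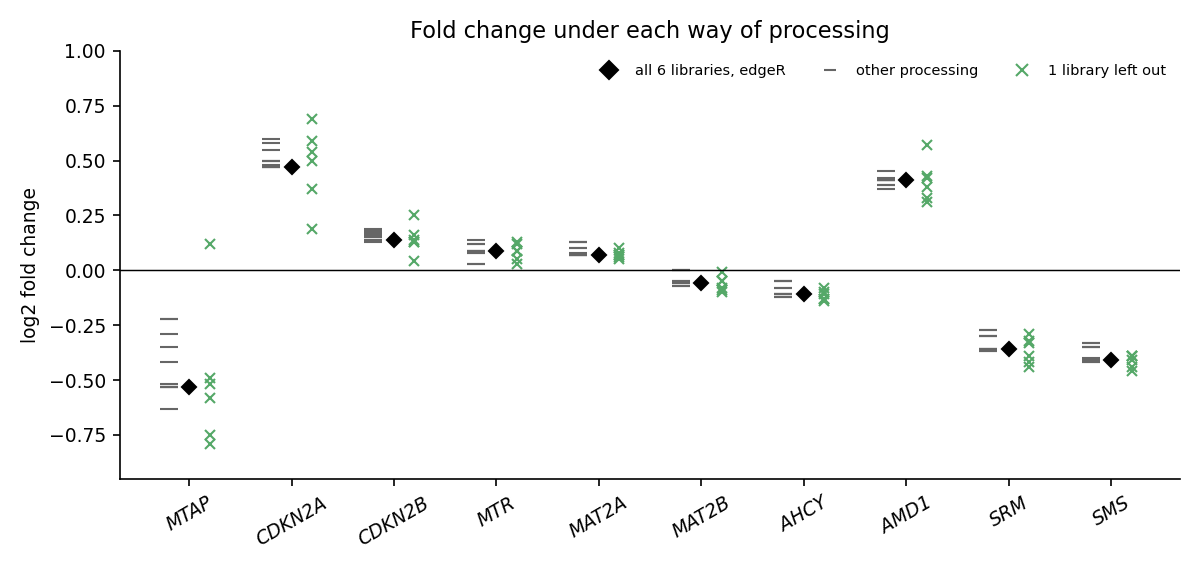
Log2 fold change of the 10 genes (PRMT5-shRNA over NC-shRNA) with all 6 libraries in edgeR (black diamonds), under other normalizations, filters, tests and corrections (grey bars), and with 1 library left out (green crosses). SRM and SMS keep to negative and AMD1 to positive values throughout, while MTAP runs from -0.79 to 0.12 and turns positive without NC-shRNA replicate 1.

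The enzymes work within a wider set of genes for methionine salvage, transsulfuration and polyamine turnover, of which 39 were listed and 35 were expressed highly enough to be tested. MAT1A, BHMT, BHMT2 and ARG1, known mainly from liver, were below the filter. By edgeR's quasi-likelihood test 0 of the 35 passed an adjusted p of 0.05, and 9 had an unadjusted p under 0.05, with 5 higher and 4 lower, beside the 12.8% of all genes given above. The groups did not overlap for 5 higher and 8 lower genes, beside 11.0% and 10.7% of all genes. A fold change over 1.5 with an unadjusted p under 0.05 was found for 3 of the 35 (ARG2, OAZ2 and PAOX), beside 3.82% of all genes. The median log2 fold change of the 35 genes was 0.03, and the values from 9 genes below are those with an unadjusted p under 0.05.

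Around ornithine, the precursor of polyamines, ARG2 and the antizymes had opposite signs. ARG2, the mitochondrial arginase that makes ornithine, had 3.44, 2.63 and 2.53 CPM in NC-shRNA and 5.86, 5.55 and 5.34 CPM in PRMT5-shRNA, a log2 fold change of 0.96 (adjusted p in edgeR = 0.16, DESeq2 adjusted p = 0.00068). VTI1B, on the strand opposite ARG2, had 3418 to 4680 counts, against 157 to 388 for ARG2. OAZ1 and OAZ2 encode antizymes, which bring ornithine decarboxylase to the proteasome when polyamines are plentiful. OAZ1 had 212, 227 and 179 CPM against 165, 171 and 161 CPM, a log2 fold change of -0.32 (adjusted p in edgeR = 0.27). OAZ2 had 59.5, 56.9 and 52.6 CPM against 38.0, 22.3 and 43.9 CPM, a log2 fold change of -0.70 (adjusted p in edgeR = 0.30). In both the groups did not overlap, and the PRMT5-shRNA libraries of OAZ2 were spread widely.

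All 4 tested genes of polyamine breakdown had positive log2 fold changes, with a median of 0.26, where 51.2% of all tested genes had a positive value. Of these 4, 2 had an unadjusted p under 0.05 (6.54% of all genes in this direction) and 0 an adjusted p under 0.05 in edgeR. SMOX, the spermine oxidase, had 104, 107 and 113 CPM in NC-shRNA and 126, 119 and 169 CPM in PRMT5-shRNA, a log2 fold change of 0.36 (adjusted p in edgeR = 0.34). PAOX, which oxidizes acetylated polyamines, was measured on only 17 to 36 counts in the controls and 34 to 63 in the knockdown, a log2 fold change of 0.90 (adjusted p in edgeR = 0.38). All 4 genes of hypusine formation, the step that modifies EIF5A with a part of spermidine, had negative values, with a median of -0.31, where 48.8% of all tested genes had a negative value, and 0 had an adjusted p under 0.05 in edgeR. Of these EIF5A alone had an unadjusted p under 0.05 (6.29% of all genes in this direction), with 712, 607 and 509 CPM against 466, 458 and 381 CPM, a log2 fold change of -0.49 (adjusted p in edgeR = 0.25, DESeq2 adjusted p = 0.036). EIF5AL1, a near-identical copy of EIF5A, had 1268 to 2629 counts, and summed with it the groups were still apart, at 751, 641 and 536 against 489, 482 and 403 CPM.

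Of the 4 genes of methionine salvage, which follows MTAP, ADI1 was lower, with 126, 112 and 106 CPM against 97.0, 77.3 and 93.0 CPM, a log2 fold change of -0.36 (adjusted p in edgeR = 0.27). Among 9 further genes of the methionine cycle, SHMT2, the mitochondrial serine hydroxymethyltransferase that feeds one-carbon units, was higher, with 143, 216 and 151 CPM against 244, 244 and 227 CPM, a log2 fold change of 0.49 (adjusted p in edgeR = 0.30). NC-shRNA replicate 2 lay closest to the knockdown for SHMT2, and the groups did not overlap. CBS, which draws homocysteine into transsulfuration, had 29.6, 24.4 and 24.4 CPM against 38.4, 28.2 and 35.2 CPM, which overlapped, and a log2 fold change of 0.37 (adjusted p in edgeR = 0.34). The near-identical copy CBSL had 674 to 1991 counts, and the sum of CBS and CBSL was 39.7, 45.1 and 48.4 CPM against 58.1, 51.0 and 69.8 CPM, without overlap. Of 3 genes each for polyamine transport and methionine uptake, 0 had an unadjusted p under 0.05 in edgeR.

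**Figure D5:**
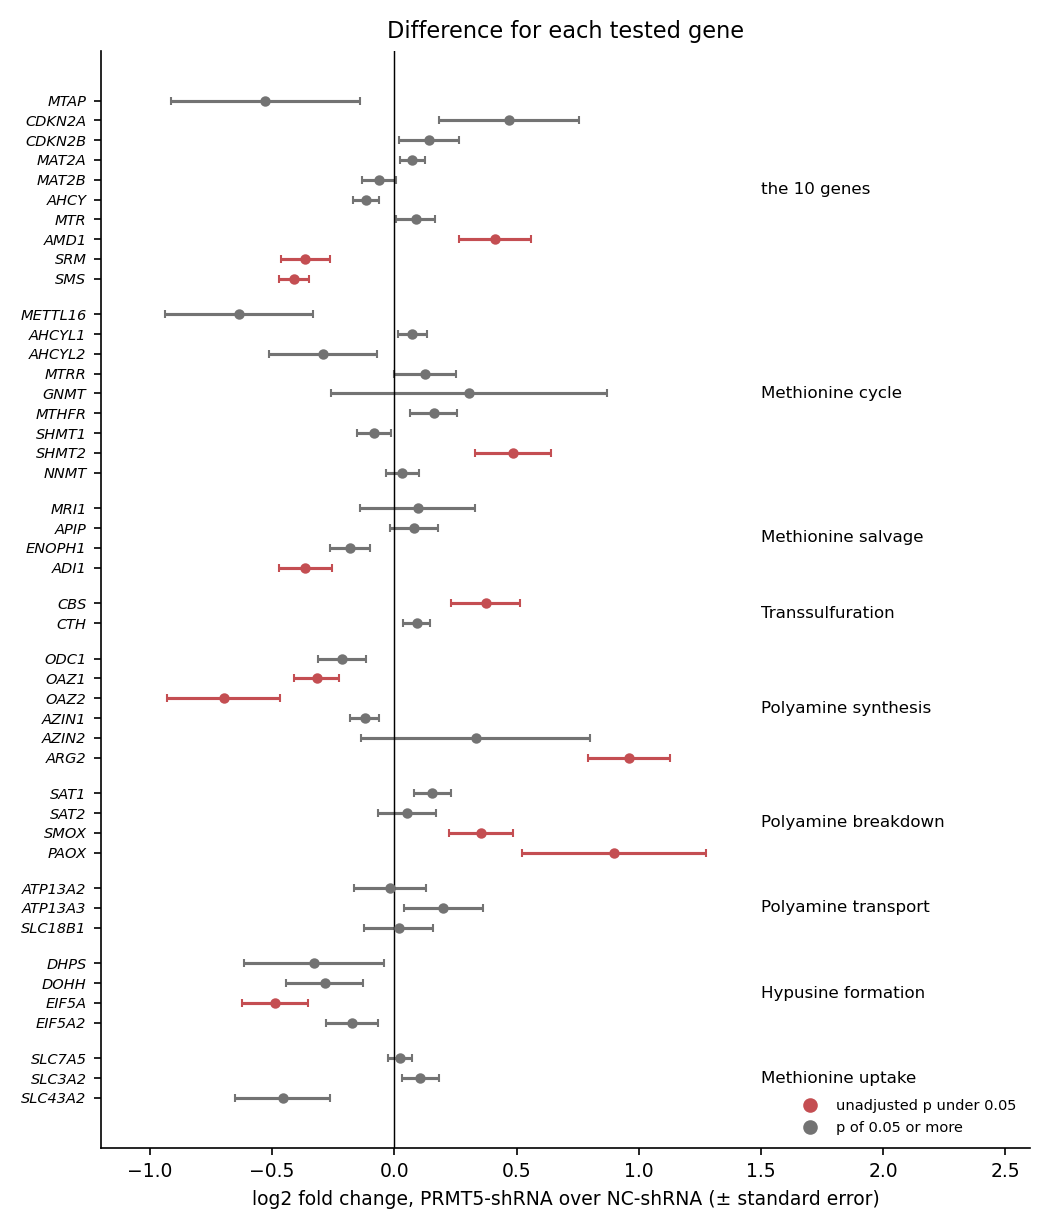
Log2 fold change (PRMT5-shRNA over NC-shRNA, bars are standard errors, edgeR) of the 10 genes and of 35 further tested genes by pathway step. Red marks an unadjusted p under 0.05 (12 genes) and grey the rest, and 0 genes passed an adjusted p of 0.05. The bars of MTAP and CDKN2A are wide against those of MAT2A, AHCY and SMS.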

How the data were processed

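RNA sequencing libraries of NCI-H460 cells with NC-shRNA or PRMT5-shRNA (3 each) were made with a stranded mRNA kit, per the methods. The authors trimmed reads with cutadapt 1.9, mapped them with HISAT2 2.0.4 and quantified genes with StringTie 1.3.4d, per the submitters' processing notes, which name GRCh38 (the methods print GRCm38, a mouse build). The authors deposited estimated counts and FPKM values of each gene. Of 58825 identifiers, 58552 were in GENCODE release 29. The estimated counts were whole numbers and were not rounded. At least 1214 genes per library had exactly 4 counts, against at most 546 with 3 or 5, so a count is not 1 fragment.

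Counts were scaled by TMM, filtered with filterByExpr and tested with edgeR 4.0.16 (R 4.3.3) by quasi-likelihood, with Benjamini-Hochberg adjustment over 20295 genes. Standard errors came from the F statistic. Alternatives were DESeq2 1.42.0, limma 3.58.1 on log2 FPKM (pseudocount 1 or 0.1), other scalings and filters, a replicate block, a length correction and each library left out. Simulated counts with known changes were used to check the main fit, the replicate block, the length correction and DESeq2. They also covered the DESeq2 scaling in edgeR and limma with pseudocount 1. The remaining alternatives were not checked in this way. The smallest chi-square per degree of freedom between libraries of a group was 43.1, so no pair held the same counts. As a count is not 1 fragment, this value cannot show whether libraries were technical repeats. The genes and lists were chosen with earlier results of these data known. Named genes were the 10 genes, PRMT5, the flanking and expressed 9p21 neighbours, and pathway genes with an unadjusted p under 0.05.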

Additional observations from a re-analysis of the deposited data

How the results depend on the processing

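The count of called genes moved most. Against 14 genes (10 higher, 4 lower) at an edgeR adjusted p under 0.05, DESeq2 gave 530 (303 and 227), limma on log2(FPKM + 1) with no filter 5 (1 and 4), and an adjusted p under 0.1 gave 33 (21 and 12). The replicate number as a block in edgeR gave 0 (2382 by unadjusted p under 0.05), and the block with a length correction, added after seeing the data, gave 0 (2378). Leaving out 1 library gave 8 to 25 genes, the lowest without NC-shRNA replicate 2 (8) and the highest without NC-shRNA replicate 3 (25), with 9 without PRMT5-shRNA replicate 1. Of the 10 genes described, 1 was called under DESeq2 (SMS) and 0 under each other alternative. Leaving out 1 library gave 2 to 3 of them with an unadjusted p under 0.05, and AMD1 was the gene lost. With the block, the log2 value of PRMT5 was -1.62 (adjusted p in edgeR = 0.14), and with block and length correction -1.57 (adjusted p in edgeR = 0.10). The numbers were not read as pairs, because they are only numbers in the labels. Deviations of same-numbered libraries had correlations of 0.0349, -0.0103 and -0.015 across all tested genes. Genes with low counts weigh as much as others in these values, so pairing among well-counted genes was not tested. As 0 genes in all were called with the block, the absence of calls among the 10 genes says nothing about its effect. With the block AMD1, SMS and SRM still had an unadjusted p under 0.05 in edgeR (0.023, 0.0013 and 0.0019). The log2 fold change of MTAP was -0.35, against -0.53 without the block. Leaving out 1 library gave MTAP values of -0.79 to 0.12, reversed without NC-shRNA replicate 1. Of the 9p21 genes, 3 were expressed at a minimum of 1 or 0.1 FPKM and 0 at 5 FPKM. For 19 named genes, 316 of 320 alternative values kept their direction and side of the threshold, and 3 passed it under DESeq2 (SMS -0.42, ARG2 0.96, EIF5A -0.49). Except where the construction of an alternative shows it, the cause was not tested. With 3 libraries a group, a single library can set the direction of a gene, as for MTAP.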

Other observations

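METTL16, the RNA methyltransferase that controls the splicing and stability of the MAT2A transcript, and MRI1, the enzyme that follows MTAP in methionine salvage, were picked here after their values were seen. Both were highest in NC-shRNA replicate 1, the library that stood out for MTAP. METTL16 had 70.2, 35.3 and 31.0 CPM in NC-shRNA replicates 1 to 3 and 31.2, 30.8 and 25.9 CPM in PRMT5-shRNA, with a log2 fold change of -0.64 (adjusted p in edgeR = 0.43). MRI1 had 54.2, 27.2 and 34.3 CPM against 39.1 to 44.5 CPM, with a log2 fold change of 0.10 (adjusted p in edgeR = 0.90). ODC1, the ornithine decarboxylase that the antizymes act on, had 380, 331 and 297 CPM against 302, 299 and 268 CPM, which overlapped, and a log2 fold change of -0.22 (adjusted p in edgeR = 0.42).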
